A study of Mus musculus with 8 samples.

Results

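CTCF binding was described at 9 genes of the presynaptic release machinery in mouse cortical neurons that had been stimulated with NMDA or left untreated. The genes were taken by name: the synapsin genes Syn1, Syn2 and Syn3, the SNARE genes Vamp2, Snap25 and Stx1a, and the active zone genes Bsn, Pclo and Rims1. They are 9 of 21883 protein-coding genes on the assembled chromosomes, and all 9 were found in the gene table. A CTCF region was assigned to a gene when its summit lay in the gene span or within 10 kb of either end. This gave 33 regions in the NMDA list and 33 in the control list, spread over 1902 kb.

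The data are chromatin immunoprecipitation and sequencing (ChIP-seq) of CTCF in wild type neurons, in which crosslinked and sheared chromatin was precipitated with an anti-CTCF antibody. NMDA cultures received 50 µM NMDA, which opens a class of glutamate receptor channels, for 10 minutes and were collected after 50 minutes in medium without the drug. Control cultures carry the treatment label "None". Both came from E16 Swiss-Webster embryos and were used at DIV13 (day 13 in vitro), with 2 ChIP replicates per group. A growth protocol common to all samples mentions etoposide, but no sample is labelled with it. Cultures of dissociated cortex hold several cell types, and neuronal identity could not be checked here because no transcript was measured. For each group the authors deposited 1 list of regions built over both replicates, with 36186 NMDA and 33815 control regions on the assembled chromosomes. With 1 list per condition no difference between conditions can be set against replicate spread. Intervals below therefore cover counting error only, and read depth is unknown.

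CTCF contacts DNA through an array of zinc fingers and halts the cohesin complex, so that its sites often anchor chromatin loops. At a synapse, neurotransmitter is released when SNARE proteins of the vesicle and of the plasma membrane zip together and fuse the membranes. Synapsins hold vesicles in reserve, and large scaffold proteins of the active zone place vesicles beside calcium channels.

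CTCF was detected at all 9 genes in both lists, and mostly at the same places. An NMDA region lay in the widened span of 9 of 9 members, against 67.4% of all protein-coding genes, and a control region likewise in 9 of 9, against 66.2%. The median span was 94.4 kb for the members and 17.2 kb for all protein-coding genes. The part of span length in these counts was not tested. A region is called shared here if it had 1 bp or more in common with a region of the other list, and 30 of the 33 NMDA regions were shared. The other 3 were NMDA-only, a share of 9.09% (95% Wilson interval 3.14 to 23.6), against 15.5% of all NMDA regions. Of the 33 control regions 3 were control-only, also 9.09% (3.14 to 23.6), against 9.22% of all control regions. Both shares had intervals that held the value of their whole list. Members with an NMDA-only region were Syn3, Vamp2 and Bsn, 3 of 9, where 20.6% of all genes had one. Members with a control-only region were Stx1a, Bsn and Pclo, 3 of 9, where 12.8% of all genes had one. A shared region lay in the widened span of 9 of 9 members and of 63.7% of all genes. The share of NMDA-only regions depended on the definition. With a reciprocal overlap of 50% it was 15.2%, against 20.4% of the whole NMDA list under the same rule, and with summits within 100 bp it was 15.2%, against 21.4%. Where both lists were limited to a reproducibility score of at least 830 it was 28.6% (8 of 28, 15.3 to 47.1), against 18.0% of the list. The control-only share was 18.2% with the reciprocal overlap, against 14.8% of the whole control list, and 15.2% with the summit rule, against 15.9%. It was 15.2% with the NMDA list limited to the length of the control list, against 11.1%, and 3.85% without flanks. The intervals at the members held the whole-list share in each of these cases.

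**Figure D1:**
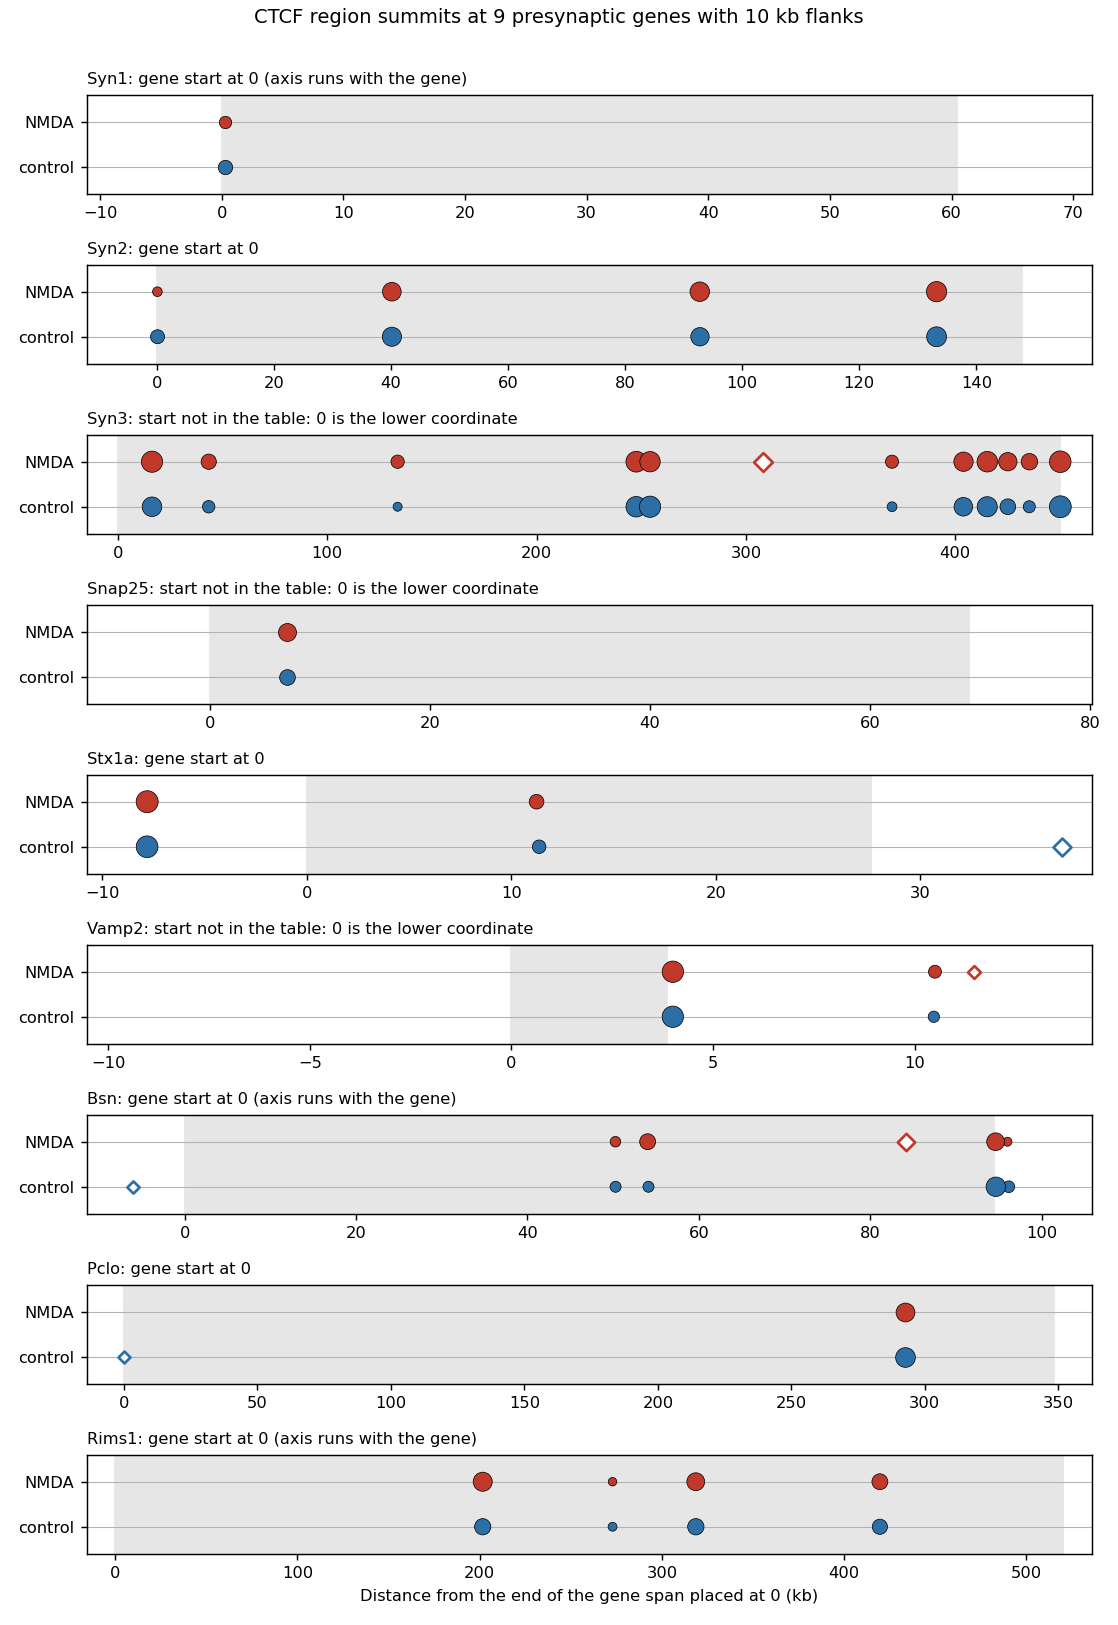
Summits of CTCF regions at each gene, NMDA above and control below, against distance in kb from the gene start or, where the start is not in the table, from the lower coordinate. The grey band is the gene span, filled circles are shared regions, open diamonds are list-only regions, and larger symbols are stronger ranks within a list. The 30 shared NMDA regions stand over their control partners, and 3 NMDA-only and 3 control-only regions stand alone.

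Gene starts were the first place examined. The RefSeq promoter table (GRCm38.p6) gives a start for 6 members. It holds no entry for Syn3, Snap25 and Vamp2, so both ends of the span were used for these. With a window of 1 kb, 4 members had an NMDA region at a start or end (Syn1, Syn2, Syn3 and Vamp2) and 5 had a control region (the same 4 and Pclo). The same rule found an NMDA region at 28.1% and a control region at 27.8% of all protein-coding genes. Syn3 and Vamp2 were counted through an end of the span. A start was listed for 79.9% of all protein-coding genes, so the use of both ends applied to a larger part of the members. An NMDA-only region lay there in 0 of 9 members, against 4.16% of all genes, and a control-only region in 1 of 9 (Pclo), against 3.57% of all genes. The counts were 4 and 5 with windows of 500 bp or 2 kb as well.

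The promoter windows of the 3 genes with a region at a listed start are printed because the edges of the regions can be read in them, and that of Bsn because it is rich in CpG and has none. Each runs 5′ to 3′ along the gene, from 250 bases before to 50 bases after the start, from RefSeq GRCm38.p6. Capitals mark the bases covered by the CTCF region, the NMDA region at Syn1 and Syn2 and the control-only region at Pclo. They cover 132 bases at Syn1, 80 at Syn2 and 135 at Pclo, and in all 3 cases the covered part includes the gene start and runs on into the gene.
Syn1 (chrX:20920869-20921168, minus strand): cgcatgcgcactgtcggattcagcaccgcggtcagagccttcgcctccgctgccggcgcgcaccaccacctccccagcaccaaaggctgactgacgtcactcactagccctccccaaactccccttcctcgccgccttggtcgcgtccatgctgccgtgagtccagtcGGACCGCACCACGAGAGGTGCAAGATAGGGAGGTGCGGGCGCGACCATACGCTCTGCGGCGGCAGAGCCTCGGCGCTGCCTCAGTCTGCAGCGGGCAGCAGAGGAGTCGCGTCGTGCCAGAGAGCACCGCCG
Syn2 (chr6:115134652-115134951, plus strand): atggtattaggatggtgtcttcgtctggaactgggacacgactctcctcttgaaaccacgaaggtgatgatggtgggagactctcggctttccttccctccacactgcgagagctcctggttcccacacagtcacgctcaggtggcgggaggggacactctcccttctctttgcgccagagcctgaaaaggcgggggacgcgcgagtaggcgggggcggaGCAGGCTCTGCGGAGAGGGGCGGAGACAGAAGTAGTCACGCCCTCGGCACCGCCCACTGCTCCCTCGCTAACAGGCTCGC
Pclo (chr5:14514668-14514967, plus strand): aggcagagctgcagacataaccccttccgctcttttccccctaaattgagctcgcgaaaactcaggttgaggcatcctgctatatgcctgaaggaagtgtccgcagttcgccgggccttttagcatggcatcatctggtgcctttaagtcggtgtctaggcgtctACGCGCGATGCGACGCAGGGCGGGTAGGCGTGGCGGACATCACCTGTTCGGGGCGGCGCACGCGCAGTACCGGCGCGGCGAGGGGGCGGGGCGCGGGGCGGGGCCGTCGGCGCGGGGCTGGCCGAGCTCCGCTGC
Bsn (chr9:108190334-108190633, minus strand): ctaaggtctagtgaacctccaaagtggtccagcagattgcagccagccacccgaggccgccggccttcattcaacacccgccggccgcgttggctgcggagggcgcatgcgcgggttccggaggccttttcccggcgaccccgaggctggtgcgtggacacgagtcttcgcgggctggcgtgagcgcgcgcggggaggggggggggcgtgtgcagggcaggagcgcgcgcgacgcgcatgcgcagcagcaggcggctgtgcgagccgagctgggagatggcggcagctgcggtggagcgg

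The members' promoter windows were rich in G and C. The GC content was 68.3% at Syn1, 62.3% at the first start of Syn2 and 66.0% at Pclo. It was 72.3% at Bsn, 69.3% at Rims1 and 66.3% at Stx1a, where no region lay within 1 kb of the start. The median of all 32851 windows in the table was 52.7%. CpG dinucleotides numbered 33 at Syn1, 21 at Syn2 and 35 at Pclo, and 38 at Bsn, 26 at Rims1 and 19 at Stx1a, against a median of 7. GC content and CpG number thus overlapped between members with and without a region at the start. The second listed start of Syn2, inside the gene, had a GC content of 51.0% and 5 CpG, and no region lay within 1 kb of it. The letters AGNNGGCNC, from the centre of the CTCF motif, were searched on both strands. Of the 6 members with a window, they were found at the first start of Syn2 only, as AGCAGGCTC 31 bases before the start, and in 21.2% of all windows. The letters TTCAGCACC, the left part of the neuron-restrictive silencer element, were found among these 6 at Syn1 only, 232 bases before the start, and in 0.371% of all windows. That element is bound by the repressor REST, and Syn1 is a textbook target of it. A match describes the letters only. The windows ended before the summits, which lay 245 bp (NMDA) and 239 bp (control) into Syn1. They lay 115 bp (NMDA) and 137 bp (control) into Syn2, and 200 bp (control) into Pclo. The sequence at these summits was thus not searched, and a missing match says nothing about it. The Syn2 match lay at the edge of the NMDA region, not at its summit.

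Syn1 encodes synapsin I, a phosphoprotein on the surface of synaptic vesicles. Its span of 60.41 kb on chromosome X (20860511 to 20920918) held 1 region in each list, both at the start shown above. The NMDA region (20920256 to 20921000) had its summit 245 bp into the gene and a signal, the authors' −log10 p, of 36.6, rank 28648 of 36186. The control region (20920115 to 20921091) had its summit 239 bp into the gene, a signal of 103.5 and rank 22519 of 33815. The summits were 6 bp apart. Both regions ranked below the middle of their list. No other summit lay in the gene or its flanks, nor in Timp1, a metalloproteinase inhibitor gene nested within it.

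Syn2 encodes synapsin II. Its 147.7 kb on chromosome 6 (115134902 to 115282626) held 4 regions in each list, all shared. At the start the NMDA region (115134872 to 115135512) had a signal of 24.04, rank 33783, and the control region (115134781 to 115135673) a signal of 95.7, rank 23447. The 3 regions inside the gene, 40.2, 92.8 and 133.2 kb from the start in both lists, were stronger than the one at the start. They had signals of 152.5, 192.5 and 238.2 in the NMDA list, at ranks 12055, 9324 and 6821. In the control list they had 282.1, 237.4 and 330.0, at ranks 9785, 12079 and 7757. The order of the first and second of these thus differed between the lists. The NMDA summits were 2 to 33 bp from the control summits. Timp4, nested in Syn2, held no summit.

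Syn3 encodes synapsin III. It had the most regions of the 9 genes, 12 in the NMDA list and 11 in the control list, along 450.2 kb of chromosome 10 (86048746 to 86498926). Its density was 2.55 NMDA and 2.34 control regions per 100 kb. Among the 556 protein-coding genes of at least 300 kb, 94.4% had no more NMDA regions per 100 kb and 93.3% no more control regions, with medians of 0.864 and 0.814. The strongest region lay at one end of the span. It had a signal of 418 and rank 2168 in the NMDA list (86498123 to 86499433), and 907 and rank 940 in the control list (86497981 to 86499350). The summits lay 40 and 14 bp inside the end and 26 bp apart. Another 4 regions followed within 46.3 kb of that end, at 14.8, 25.1, 34.9 and 46.3 kb in the NMDA list. Their ranks were 18504, 13110, 5763 and 9877 in the NMDA list, and 27393, 19377, 6740 and 11396 in the control list. The third was the strongest of these 4 in both lists.

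Within Syn3 lies Timp3, which encodes another inhibitor of metalloproteinases. A pair of strong regions flanked its start, 4.05 kb before and 2.50 kb after it in the NMDA list. The first had a signal of 283.9 (86295699 to 86297001, rank 5042) in the NMDA list and 397.9 (rank 5530) in the control list. The second had 249.3 (86301844 to 86303450, rank 6361) in the NMDA list and 526.4 (rank 3041) in the control list. The one NMDA-only region of Syn3 (86356439 to 86357258) had a signal of 42.3 at rank 26782, with 13.2 in the first and 29.2 in the second replicate column. It was of the same size as 2 shared regions of the gene, with 42.8 (86181967 to 86182727) and 41.4 (86418301 to 86419125) in the NMDA list. Their control partners were also weak, with 40.8 at rank 32606 and 46.5 at rank 31366. At the far side of the gene, the region at 86064456 to 86066436 had 335.9 in the NMDA list, rank 3596, and 309.2 in the control list, rank 8581.

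Vamp2 encodes synaptobrevin 2, the SNARE protein of synaptic vesicles. It is the shortest member, with 3.854 kb on chromosome 11 (69088528 to 69092381). No summit lay inside it. A strong shared region stood 150 bp (NMDA) and 149 bp (control) beyond one end of the span, with summits 1 bp apart. It was 3203 bp wide with a signal of 371.9 and rank 2867 in the NMDA list (69091186 to 69094388), and 2608 bp wide with 557.5 and rank 2674 in the control list (69091714 to 69094321). The other regions in its flank lay at listed starts of the neighbour Per1, a circadian clock gene. Both listed starts (69098949 and 69100152) lie inside the Per1 span (69095108 to 69109965). A shared region had its summit 83 bp from the first listed Per1 start in the NMDA list (signal 39.9, rank 27517). In the control list its summit lay 55 bp from that start (59.4, rank 28855). The NMDA-only region (69099665 to 69100240) had its summit 141 bp from the second listed Per1 start, with a signal of 22.0 and rank 34764. Its replicate columns held 8.05 and 14.0. With regions extended by 500 bp it was no longer NMDA-only, and the NMDA-only share was 6.06% at the members and 14.3% over the whole list.

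Snap25 encodes a SNARE protein of the plasma membrane. It held 1 region in each list along 68.99 kb of chromosome 2 (136713439 to 136782428), and none lay within 1 kb of either end. The NMDA region (136720205 to 136720837) had a signal of 127.6 and rank 14165. The control region (136720134 to 136720943) had 135.1 and rank 19400. Their summits were 3 bp apart, about 7.03 kb inside the end with the lower coordinate. The replicate columns of the NMDA list gave 58.1 and 69.5, close to each other.

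Stx1a encodes syntaxin 1A, the partner of Snap25 in the plasma membrane. It spans 27.62 kb of chromosome 5 (135023482 to 135051100), and the region with the best rank among the members in the NMDA list stood 7.81 kb before its start. This NMDA region (135011993 to 135017000) was 5008 bp wide, the widest of the 33, with a signal of 684.2 at rank 484 and replicate columns of 374 and 310. Its summit lay nearer to the start of Abhd11os, a long noncoding RNA gene, at 2.51 kb, and the region covered the whole of Abhd11os. This NMDA region overlapped 2 control regions. One (135014713 to 135017094) had its summit 4 bp away, a signal of 774.2 and rank 1329. The other (135011898 to 135014513) had its summit 2376 bp away, outside the flank, with 454.4 and rank 4182. Inside the gene a shared region lay 11.2 kb from the start in the NMDA list, with 56.2 at rank 23444, and 11.4 kb from it in the control list, with 87.8 at rank 24426. Its summits were 127 bp apart. A control-only region (135060010 to 135060806, signal 74.9, rank 26231) lay 9344 bp beyond the 3′ end, within Bud23, a methyltransferase gene.

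Bsn encodes bassoon, a scaffold of the active zone. It spans 94.40 kb of chromosome 9 (108096022 to 108190419) and held 5 regions in each list, of which 4 in each were shared. None lay within 1 kb of its start. The strongest stood at the 3′ end, 224 bp beyond it in the NMDA list (108094946 to 108096972, signal 119.6, rank 14960) and 252 bp beyond it in the control list (108094962 to 108096754, 302.5, rank 8888). Next to it, a shared region covered the start of Apeh, a peptidase gene, with 21.9 at rank 34820 in the NMDA list and 63.8 at rank 28049 in the control list. Its summits were 159 bp apart, the largest distance among the pairs of the 9 genes. The Apeh start was also the nearest start to the region at the Bsn 3′ end, 1.32 kb from its NMDA summit. Inside Bsn, shared regions lay 54.0 and 50.2 kb from the Bsn start in the NMDA list. The first, in the long noncoding RNA gene 4930447F24Rik, had 75.5 at rank 20174 in the NMDA list and 56.5 at rank 29382 in the control list. The second had 27.3 at rank 32223 in the NMDA list and 56.8 at rank 29322 in the control list. The NMDA-only region (108105979 to 108106658) lay 84.1 kb into the gene with a signal of 35.8, rank 28964, and replicate columns of 15.1 and 20.7. The control-only region (108196221 to 108197567) lay 6103 bp before the start with 38.5, rank 33074 of 33815.

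Pclo encodes piccolo, a relative of bassoon in the active zone. It had the fewest NMDA regions per 100 kb, 0.271, with 1 region along 348.6 kb of chromosome 5 (14514906 to 14863465). In the control list it had 2, or 0.543 per 100 kb. The shared region lay 292.4 kb into the gene, with a signal of 159.4 and rank 11522 in the NMDA list (14806737 to 14807775), and 319.0 and rank 8203 in the control list (14806917 to 14807751). The control-only region at the start (14514833 to 14515604) had its summit 200 bp into the gene. Its signal of 36.4 and its score of 567 were low, at rank 33398 of 33815. Stretches without a summit were measured within the span and its flanks only. The longest in the NMDA list was 302.4 kb, from the outer edge of the flank to the shared region, and may run on beyond the flank. In the control list it was 292.2 kb, between the summits of its 2 regions. Of the 556 genes of at least 300 kb, 13.3% had as few NMDA regions per 100 kb or fewer, and 31.3% as few control regions or fewer.

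Rims1 encodes RIM1, which links vesicles to calcium channels of the active zone. It is the longest member, with 520.2 kb on chromosome 1 (22285972 to 22806158). It held 4 regions in each list, or 0.740 per 100 kb, all shared and all inside the gene. The flank before the start held none, and the nearest inside the gene was 201.7 kb away. From the start, the summits stood at 201.7, 272.9, 318.6 and 419.6 kb in both lists. Their NMDA signals were 169.8, 20.2, 123.8 and 74.97, at ranks 10760, 35594, 14558 and 20244. Their control signals were 152.3, 40.1, 155.2 and 121.4, at ranks 17962, 32736, 17722 and 20638. The second was the weakest in both lists. The summits of the fourth coincided, and those of the others lay 1 to 35 bp apart. Of the long genes, 42.4% had as few NMDA regions per 100 kb or fewer, and 44.4% as few control regions or fewer.

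Density differed widely among the 9 genes, from 0.271 NMDA regions per 100 kb at Pclo to 12.6 at Vamp2, and from 0.543 control regions at Pclo to 8.38 at Vamp2. Together the members had 1.74 regions per 100 kb in each list (exact 95% Poisson interval 1.19 to 2.44). The spans of all protein-coding genes with the same flanks held 2.12 NMDA and 1.99 control regions per 100 kb, within that interval. For a short gene the flanks make up most of the length, and at Vamp2 all 3 NMDA and 2 control summits lay in them. The intervals of single genes were wide. They ran from 2.59 to 36.8 for the NMDA list at Vamp2 and from 0.00687 to 1.51 at Pclo. In the NMDA list the intervals of Pclo and Rims1 (0.202 to 1.90) lay below the 2.12 of all genes and that of Vamp2 above it. In the control list those of Pclo (0.0657 to 1.96) and Rims1 (0.202 to 1.90) lay below 1.99, and that of Vamp2 (1.02 to 30.3) held it. Syn3, Pclo and Rims1 each span at least 300 kb. The medians of the 556 genes of at least 300 kb were 0.864 NMDA and 0.814 control regions per 100 kb. The intervals of Pclo and Rims1 held these medians in both lists. Those of Syn3 (1.32 to 4.46 NMDA and 1.17 to 4.19 control) lay above them. The part of span length in these densities was not tested.

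**Figure D2:**
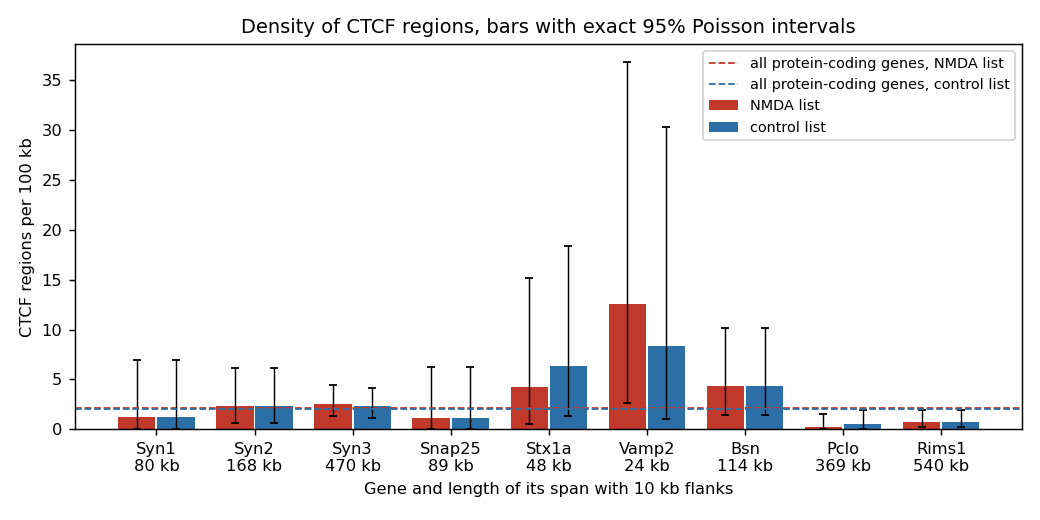
NMDA and control regions per 100 kb of each gene span with 10 kb flanks, with exact 95% Poisson intervals for counting error. Dashed lines, which almost coincide, give all protein-coding genes (2.12 for NMDA and 1.99 for control), and Pclo and Rims1 stand lowest and Vamp2 highest.

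Ranks within each list placed the members' regions across its whole range. In the NMDA list they ran from 484 to 35594 with a median of 14960 (95% interval of the median 10760 to 26614), and 17 of 33 ranked above the middle of the list. In the control list they ran from 940 to 33398 with a median of 19400 (9785 to 26672), and 13 of 33 ranked above the middle of the list. The strongest 10% of each list held 4 of the 33. In the NMDA list these 4 were the regions before Stx1a, at the end of Syn3, beyond Vamp2 and at the far side of Syn3. In the control list they were those at the end of Syn3, before Stx1a, beyond Vamp2 and after the Timp3 start in Syn3. List-only regions were weak, with ranks of 26782 or later in the NMDA list and of 26231 or later in the control list. The same held over the whole lists. There the median signal was 28.46 for NMDA-only regions against 90.91 for all NMDA regions. It was 50.35 for control-only regions against 165.5 for all control regions. Ranks from lists of unequal length, and signals from lists with unequal medians, were set side by side only. No change was read from them.

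**Figure D3:**
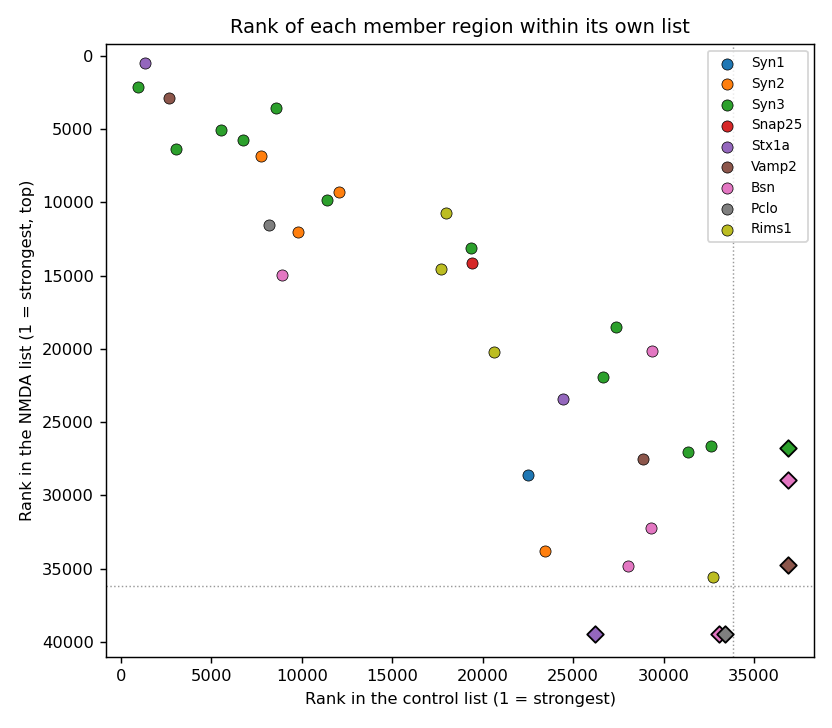
Rank in the NMDA list (vertical, strongest at the top) against rank in the control list for the 30 overlapping pairs, coloured by gene. Diamonds beyond the dotted ends of the lists are the 3 NMDA-only (right) and 3 control-only (bottom) regions, all from rank 26231 on.

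The NMDA list gives a value for each replicate, and these differed within regions. The authors' −log10 p ran from 8.05 to 374 in the first replicate column, with a median of 34.3, and from 9.33 to 310 in the second, with a median of 69.5. The second was higher in 24 of 33 regions (72.7%), as in 79.4% of all NMDA regions. The gap was wide at the Rims1 region 419.6 kb from the start (14.1 and 60.9) and at the Syn3 region 25.1 kb from its strongest end (27.6 and 112). It was narrow at the Vamp2 end (182 and 189). At the Syn3 end the first column was the higher one (255 and 163).

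**Figure D4:**
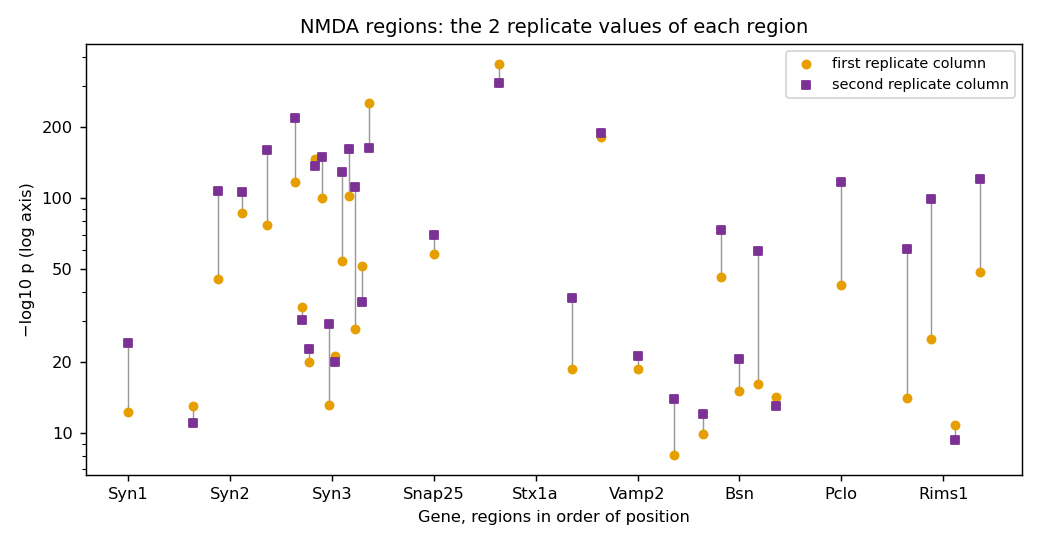
The authors' −log10 p (log axis) of the 33 NMDA regions in the first (circles) and second (squares) replicate column, joined by a line and ordered by position within each gene. The second column is higher in 24 of 33 regions, with the Syn3 end and the region before Stx1a among the exceptions.

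Paired regions had their summits close together. Over the 30 pairs the median distance was 13 bp, against 18 bp over all 30570 pairs, and 14 of 30 (46.7%) lay within 10 bp, against 32.3% of all pairs. Within 100 bp lay 28 of 30 (93.3%), against 93.1% of all pairs. The exceptions were the region inside Stx1a and the one at the Apeh start beside Bsn. The NMDA region was the wider one in 22 of 30 pairs (73.3%), against 61.0% of all pairs. Member regions had a median width of 979 bp in the NMDA list, from 553 to 5008 bp, and of 893 bp in the control list, from 518 to 2608 bp. The medians of the whole lists were 1182 and 1123 bp. Whether these members differ from other genes in width or summit distance was not tested.

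**Figure D5:**
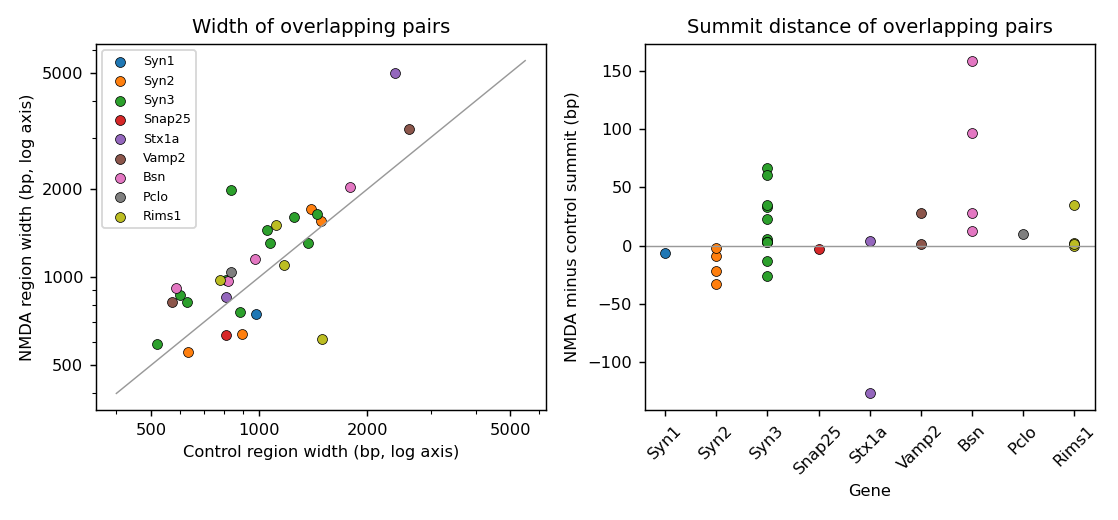
Left, NMDA width against control width (bp, log axes) of the 30 overlapping pairs with the line of equality, above which 22 lie. Right, NMDA minus control summit position (bp) by gene, where all but 2 pairs lie within 100 bp of 0.

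Other genes of the release machinery were counted from a list of 53, all of which were found among the protein-coding genes. Their median span was 59.2 kb. An NMDA region lay at a start or end of 25 (47.2%, 95% Wilson interval 34.4 to 60.3), against 28.1% of all protein-coding genes. A control region lay there at 24 (45.3%, 32.7 to 58.5), against 27.8%. In the span with 10 kb flanks an NMDA-only region lay at 21 (39.6%, 27.6 to 53.1), against 20.6% of all genes. A control-only region lay at 12 (22.6%, 13.5 to 35.5), against 12.8%, and a shared one at 49 (92.5%, 82.1 to 97.0), against 63.7%. The median span of all protein-coding genes was 17.2 kb, and the part of span length in the counts over widened spans was not tested. No cause of the shares at starts or ends was tested. The strongest shared regions at starts or ends lay at Dnm1, which encodes the membrane-cutting protein dynamin 1 (chromosome 2, 32352238 to 32354154, signal 804.1, rank 241 in the NMDA list), at Snapin (chromosome 3, 90490238 to 90491879, 787.5, rank 277) and at the vesicle protein gene Syngr1 (chromosome 15, 80089701 to 80093389, 611.4, rank 709). The best-ranked control regions that overlapped them had ranks 108 (Dnm1), 508 (Snapin) and 663 (Syngr1). The strongest NMDA-only regions lay inside Ppfia2, a liprin gene of the active zone (chromosome 10, 106608501 to 106609763, 105.1, rank 16451), Stxbp5l (chromosome 16, 37347007 to 37347811, 70.2, rank 20955) and the complexin gene Cplx2 (chromosome 13, 54377927 to 54378788, 68.1, rank 21300). At Ppfia2 the replicate columns differed, with 16.5 and 88.5. The strongest control-only regions lay inside Unc13b, which encodes a vesicle priming factor (chromosome 4, 43243840 to 43244881, 196.4, rank 14627), the calcium sensor gene Syt7 (chromosome 19, 10391745 to 10392765, 73.8, rank 26395) and the active zone gene Erc1 (chromosome 6, 119709440 to 119710150, 73.0, rank 26525). The count of genes with a control-only region was 19 of 53 with a reciprocal overlap of 50%, where 19.2% of all genes had one, and 7 of 53 at the stricter score, where 6.59% did.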

How the data were processed

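CTCF ChIP-seq was analysed from 2 region lists, each built by the authors over 2 ChIP replicates per group (NMDA and control). The 2 input libraries per group were not analysed here. The submitters' processing notes name BWA, MACS2, Trimmomatic, SAMtools and FastQC with the builds mm10 and GRCm38.p6, without versions or settings. Both lists carry the name of the irreproducible discovery rate (IDR) procedure, and the deposited score ran from 540 to 1000. The −log10 p-value the authors deposited for each region served as signal and was ranked within a list only. In the NMDA list it was the sum of 2 replicate columns in 36193 of 36193 deposited regions (tolerance 0.001); which column is which replicate is not stated, and 6 columns of replicate peak positions and values were not used. Read depth is unknown.

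Regions on unplaced sequence were left out (7 NMDA, 5 control). Coordinates are 1-based, mm10. Gene spans were read from RefSeq (GRCm38.p6) and starts from its promoter table, which matched 79.9% of protein-coding genes; both span ends were used for the rest. Exons and introns were not assigned, and region sequences were not used here. Distances and overlaps were computed in Python 3.11.15 with pandas 2.3.3, and intervals with scipy 1.17.1. Only the 1 bp overlap call, the counting of summits in widened spans and the summed span length were tested on simulated data. No test between conditions was made, since each has 1 list. All 9 members were described. Of the other presynaptic genes, the rule named the 3 strongest NMDA-only and control-only regions and the 3 strongest shared regions at starts or ends. Neighbours were named at some, but not all, of the regions that lay nearer to their start than to that of the member. Members and lists were chosen with earlier results of these data known. Alternatives varied the overlap rule, score, list length, flank, window, placement by summit and ranking column.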

Additional observations from a re-analysis of the deposited data

How the results depend on the processing

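Of 54 alternative values for 11 results, 50 stayed within the counting interval of the reported value, or within 1.5 times a count, and 4 did not. With both lists limited to a score of at least 830, the NMDA-only share became 28.6% and the control density 1.16 regions per 100 kb, since 22 of the 33 control regions at the members were kept, against 28 of the 33 NMDA regions. The number of other presynaptic genes with a control-only region was 7 at that score and 19 with a reciprocal overlap of 50%; the cause was not tested. Without Syn3, the gene with the most regions, the density was 1.47 NMDA and 1.54 control regions per 100 kb. The median NMDA rank was 17225 by the first and 15832 by the second replicate column. No paired analysis was possible because each group has 1 list over both replicates. For the same reason no region list could be made without a replicate, and the NMDA ranks by a single replicate column above are the nearest to it. With 33 regions per list, a share such as 9.09% has an interval from 3.14 to 23.6%, and the unknown read depth limits what absence from a list shows.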
